A study of Homo sapiens with 7 samples.

Results

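The region described here is the neighbourhood of ZNF703 on the short arm of human chromosome 8, as it appears in a list of GATA6 binding peaks from LS174T cells. Its members were chosen by position, as every peak whose summit lay between 37 and 38 Mb on the hg19 build, and the window was proposed with its high number of peaks already known. It held 18 peaks of the 7568 in the list, and 348 peaks lay on chromosome 8 as a whole. The number of peaks in the window and their closeness are therefore given as a description and were not tested.

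The study mapped GATA6 by chromatin immunoprecipitation followed by sequencing (ChIP-seq) in LS174T, an established line of human colorectal carcinoma cells. The labels name no treatment and no genetic change. The cells were kept in medium with 10% serum, and were fixed with 1% formaldehyde for 15 min. Antibodies against GATA6 were used for 3 libraries, and 1 library each came from input DNA, H3K27ac, H3K4me3 and H3K4me1. The labels number the GATA6 libraries without saying if the cultures differed. One list of GATA6 peaks served for all values below. It carries no value for a single library, so no spread between libraries can be given, all comparisons are within 1 cell line, and how deeply each library was sequenced is unknown.

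GATA6 is a zinc-finger transcription factor that binds GATA motifs in promoters and distal enhancers, and in the intestine it is known for its role in the crypt epithelium. ZNF703 encodes a zinc-finger protein of the NET family that acts as a transcriptional co-repressor. It is best known as an oncogene of the short arm of chromosome 8 that is amplified in luminal breast cancers. Distal enhancers can lie far from the gene they act on, so the distance between a peak and a start site does not assign the peak to a gene.

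On hg19 the gene was taken to span 37.553 to 37.556 Mb on the plus strand, a position that came with the choice of the window, is rounded to the nearest kb, and was not read from an annotation here. Distances below are from that start to a summit, with upstream meaning lower coordinates. In the RefSeq gene table, which is on another build (GRCh38.p14) and was used for names and order only, the protein-coding neighbour upstream is KCNU1, a gene for a potassium channel subunit. Downstream follow ERLIN2, PLPBP, ADGRA2, BRF2, RAB11FIP1, GOT1L1, ADRB3, EIF4EBP1 and ASH2L, in that order. Whether a peak fell in an exon, an intron or a promoter was not analysed here.

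GATA6 peaks were gathered on the upstream side of ZNF703, while the highest peak of the window lay downstream. Of the 18 peaks, 16 (88.9%) lay upstream and 2 downstream. The window itself is not symmetric, with 553 kb before the start and 447 kb after it, and the densities were 2.89 peaks per 100 kb upstream and 0.447 downstream. All 18 peaks lay within 400 kb of the start, so an equal reach on both sides gave the same split. By intervals of 100 kb, the counts going away from the gene upstream were 6, 5, 1 and 4, with 0 beyond 400 kb. Downstream they were 0, 1 and 1, and again 0 beyond.

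**Figure D1:**
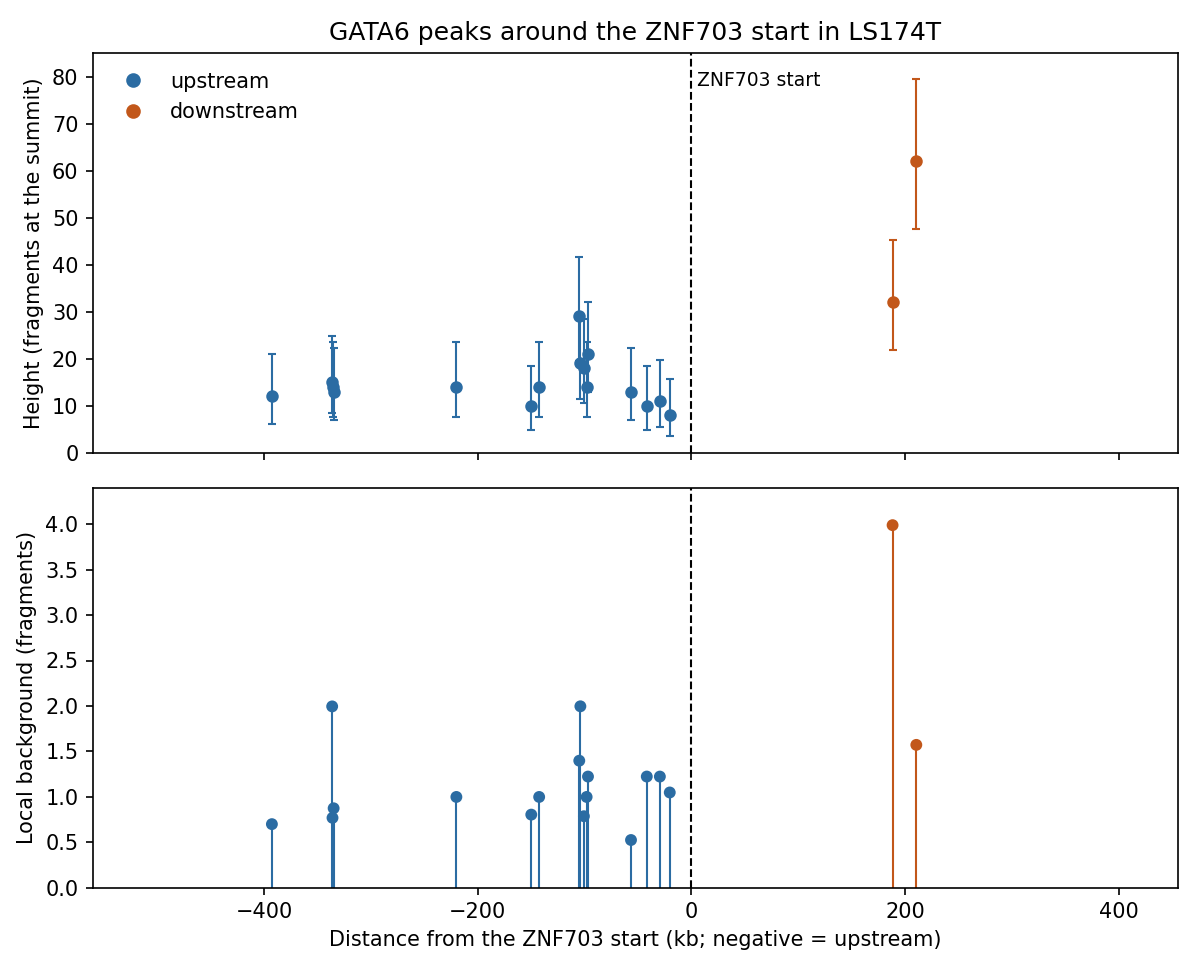
Height of each of the 18 GATA6 peaks (top, fragments at the summit, bars are 95% Poisson intervals) and its local background (bottom, fragments) against the distance from the ZNF703 start in kb. The 16 upstream peaks (blue) have heights from 8 to 29, and the 2 downstream peaks (orange) have heights of 32 and 62.

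No peak lay at the start of ZNF703 itself. The nearest summit was 20.2 kb upstream, so 0 peaks were found within 20 kb on either side, and 6 peaks lay within 100 kb, all of them upstream. The gene sat in the longest interval without a summit inside the window, 209 kb between the summits at 37532776 and 37741328. Such an interval is not rare on this chromosome, where 40.9% of the 347 distances between neighbouring summits were at least as long and the median distance was 148 kb. A list of peaks holds only regions that passed the authors' threshold, so weaker signal at the start would not appear in it.

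The 4 upstream peaks nearest to ZNF703 were low. Going towards the gene, the first of them, from 37496245 to 37496716 and 56.5 kb upstream, reached 13 fragments in height (95% Poisson interval 6.92 to 22.2) over a local background of 0.524. The height is the number of fragments piled up at the summit, the local background is that height divided by the authors' fold enrichment, and the interval covers counting error only. This peak was the widest of the window, at 472 bp, and with a fold of 24.82 it was second in fold only to the downstream peak of height 62. It thus had the lowest background of the 18 peaks and only a modest height.

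The 3 peaks closer to the gene were weaker in both measures. At 41.7 kb upstream, the peak from 37511131 to 37511379 had 10 fragments at a fold of 8.18. At 29.5 kb, the peak from 37523439 to 37523613 had 11 fragments at a fold of 9. Its width of 175 bp was the minimum of the list, shared by every peak from rank 6885 to rank 7568 in width. The nearest of all, from 37532709 to 37532997, had 8 fragments (3.45 to 15.8) at a fold of 7.64, and 1.96% of the list was lower in height. These 3 were also the members with a −log10 q under 5, at 3.78, 4.68 and 2.60, where q is the authors' p-value corrected for multiple tests. The remaining 15 of 18 members (83.3%) reached 5, against 83.2% of the whole list, a share near that of the list, and the members below 5 were those next to ZNF703. With these 3 left out, the nearest GATA6 peak was 56.5 kb from the start. The limit of 5 was set here, and members 150 and 336 kb upstream passed it narrowly, at 5.48 and 5.81. The Poisson intervals for the heights of the 4 nearest upstream peaks overlapped, so their order was not resolved.

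About 100 kb upstream lay a cluster of 5 peaks, which held the highest peaks of the upstream side. A cluster here is a run of summits in which each neighbour lies within 10 kb of the next. This one ran from 37447917 to 37456372, or 96.8 to 105 kb before the start of ZNF703, and its peaks covered 1328 of 8456 bp (15.7%). The gaps between its summits, going towards the gene, were 1033, 3291, 2561 and 1275 bp. Each gap was longer than any of the peaks themselves, and the closest edges were 751 bp apart.

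Heights within the cluster ran from 14 to 29 fragments. The outermost peak, from 37447917 to 37448240, was the highest, reaching 29 fragments (19.4 to 41.6) with a fold of 20.76. It stood above 85.4% of the list and ranked 36 of 348 on chromosome 8. Next came the peak from 37448992 to 37449201, with 19 fragments (11.4 to 29.7) at a fold of 9.52, over a background of 2.00. The middle peak, from 37452280 to 37452562, had a height of 18 (10.7 to 28.4) with the largest fold of the cluster, 22.91, over a background of 0.786. The lowest of the cluster, from 37454862 to 37455117, had 14 fragments (7.65 to 23.5) at a fold of 14.03. The innermost, from 37456118 to 37456372, had 21 fragments (13.0 to 32.1) at a fold of 17.18.

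**Figure D2:**
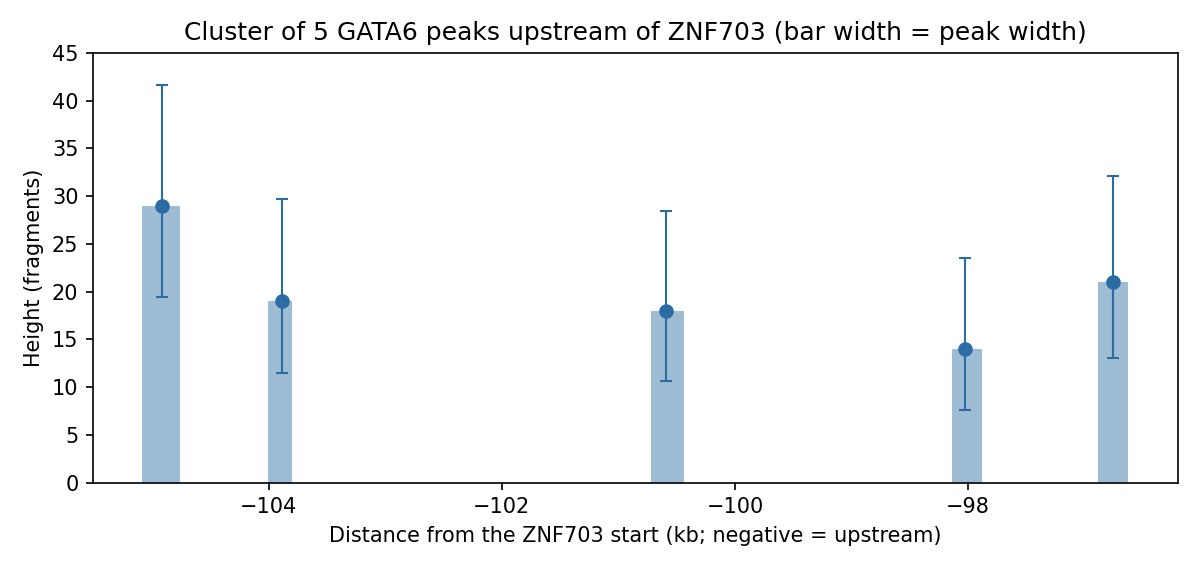
The 5 clustered GATA6 peaks upstream of ZNF703, with distance from the start in kb on the horizontal axis and height in fragments on the vertical axis. Each bar spans the peak's width, the point marks the summit, and the error bar is the 95% Poisson interval; heights range from 14 to 29 and the intervals of all 5 overlap.

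The cluster and the other upstream peaks differed more in height than in fold. The median height was 19 fragments in the cluster and 13 in the 11 upstream peaks outside it, whose heights ran from 8 to 15. Median folds were 17.18 and 14.03. The mean background was 1.28 fragments in the cluster and 1.01 outside it, so the background moved in the same direction as the height, and its part in the heights was not tested. The lowest height of the cluster, 14, was also reached outside it, so the ranges overlapped.

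Farther upstream, peaks came as a triplet, a pair and single peaks. The triplet, 335 to 336 kb before the start, spanned 1806 bp from 37216580 to 37218385, and its peaks covered 50.7% of that length. Its first and second summits were 316 bp apart, with 100 bp between the edges of these peaks, the only pair of the window within 1 kb. Their heights were 15 and 14, but their folds were 7.52 and 18.23, since the background was 1.99 at one summit and 0.768 at the other. The third peak of the triplet had 13 fragments at a fold of 14.89. Such a small distance between edges leaves it unresolved whether the close pair marks separate binding sites or 1 broader site split in the list.

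The pair lay 142 and 150 kb upstream, with summits 7.38 kb apart, heights of 14 and 10, and folds of 14.03 and 12.45. A single peak from 37332937 to 37333173, 220 kb upstream, had 14 fragments at a fold of 14.03, the same scores as a member of the pair and a member of the cluster. The farthest member, from 37160320 to 37160515 and 393 kb upstream, had 12 fragments (6.20 to 21.0) at a fold of 17.18. Over all 18 members, summits sat at 23.2 to 66.4% of the peak width, with a median of 47.3%.

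The 2 downstream peaks were the highest of the window. The peak from 37763296 to 37763729, 211 kb downstream of the ZNF703 start, had a height of 62 fragments (47.5 to 79.5), a fold of 39.46 and a −log10 p of 75.61. It ranked 2 in height and 3 in −log10 p among the 348 peaks of chromosome 8, and 58 in height in the whole list, where 99.2% of peaks were lower. Its interval lay above those of all the other members. At 188 kb, the peak from 37741197 to 37741495 had a height of 32 (21.9 to 45.2) but a fold of only 8.02. Its local background of 3.99 fragments was the highest of the window, and it was 1 of 6 among the 348 chromosome 8 peaks with one as high. The summits of both peaks were 22.2 kb apart, so they formed no cluster.

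Height and fold therefore ordered these downstream peaks differently. By height they came first and second, whereas by fold they came first and 16th of 18. Together they held 28.6% of the summed height of the window, 94 of 329 fragments, and the 16 upstream peaks held 71.4%. The peak of height 32 could not be separated by its interval from the highest upstream peak (19.4 to 41.6). Its height and its background were both high, and the part of the background in its height was not tested. Several genes follow ZNF703 on this side, as listed above, and no gene was assigned to either peak.

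**Figure D3:**
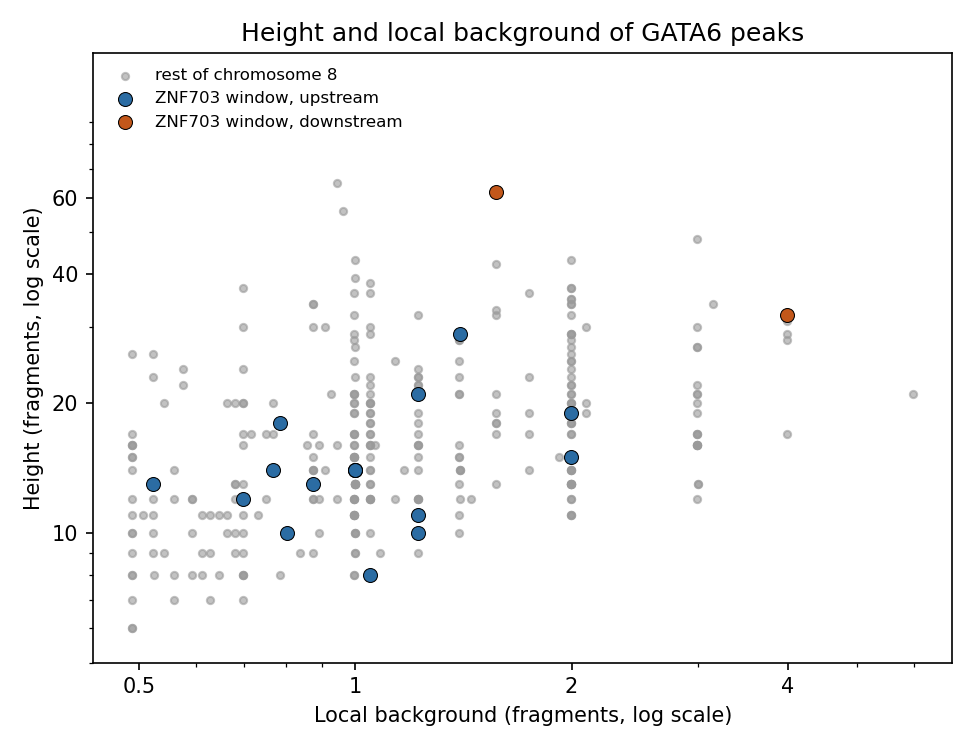
Height against local background (fragments, both on a log scale) for the 18 members and the 330 other GATA6 peaks of chromosome 8. Upstream members (blue) lie within the bulk of the grey points. Of the downstream peaks (orange), that of height 62 lies at the upper edge. The one of height 32 lies on the side of high background, at 3.99 fragments. At a height of 14, 3 upstream members share 1 point.

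Local background in the window was close to that elsewhere on the chromosome. Its median was 1.02 fragments, against 1.05 over the rest of chromosome 8 and 1.05 over the whole list, and its means were 1.28, 1.32 and 1.36. Of the 18 members, 4 (the 2 downstream peaks, 1 in the cluster and 1 in the triplet) had a background over 1.5, against 29.0% of all chromosome 8 peaks. None was at the lowest background of the list, 0.489, which 5.45% of the other chromosome 8 peaks had. The values moved in steps. In 6 members the background equalled a whole number of steps of 0.998, the level that 1 control fragment would give over the narrowest peak width of 175 bp, in 9 it matched steps for 1 kb (0.175), and in 3 for 10 kb (0.0175). Steps were used unrounded, and a match allowed a relative error of 0.0005 plus that from rounding of the fold. No source names the control, and this reading rests on the values. On this reading, the folds matched at the summit rest on only 1 to 4 control fragments, and those matched in 1 kb on 3 to 9. The 3 matched in 10 kb rest on more, between 44 and 46.

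In height, width and fold the members resembled other chromosome 8 peaks. Median heights were 14 fragments in the window and 15.5 over the rest of the chromosome, with interquartile ranges of 12.3 to 18.8 and 12 to 21. Median widths were 259.5 and 251.5 bp, and median folds were 14.03 in both. A fold of at least 10 was reached by 12 of 18 members (66.7%), against 76.5% of the whole list. The peaks are not replicates, so this difference was not tested.

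Peaks of the window lay close together, and the window was chosen with this known, so nothing is read from it. A neighbour within 10 kb was found for 12 of 18 members (66.7%), against 27.2% of the whole list. Summits were a median of 12.3 kb from the next, over 17 distances, and 8 of them (47.1%) were within 10 kb, against 13.8% of all distances on chromosome 8. By this median the window ranked 2 among the 21 windows of chromosome 8 with at least 5 peaks. The window from 110 to 111 Mb was closer, with a median of 8.23 kb over its 7 peaks and a cluster of 6 of them, the largest on the chromosome. The 16 upstream summits spanned 372 kb. No other run of 16 successive peaks on chromosome 8 was shorter, but the shortest run without any of these peaks, which began at 128.2 Mb, spanned 375 kb and was practically as compact. For 5 successive peaks the difference was wider, with 8.16 kb for the cluster upstream of ZNF703 and 22.7 kb for the shortest run elsewhere on the chromosome, at 110.6 Mb. Both run lengths, 16 and 5, were taken from the peaks of this window. The comparison therefore favours it, and other lengths were not tried.

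No peak outside the window lay close to its outermost members. The adjoining windows from 36 to 37 Mb and from 38 to 39 Mb held 0 and 4 peaks. That from 35 to 36 Mb held 4, against a median of 1 over the chromosome. The peak before the first member lay 1216 kb away, with a height of 8 at a background of 0.489, and the peak after the last member lay 419 kb away, with a height of 9. Just inside the window's limits, the first member lay 160 kb from its beginning and the last 236 kb from its end. The nearest peaks outside were 1056 kb before the lower limit and 182 kb past the upper one, so a shift of either limit by under 160 kb would have changed no member.

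Among the 146 windows of 1 Mb on chromosome 8, of which 101 held a peak and the median held 1, the ZNF703 window ranked 3 by number of peaks. The window from 128 to 129 Mb held 23 and that from 8 to 9 Mb held 19, while the window from 81 to 82 Mb followed with 9, as did another with the same number. Over 2919 such windows on chromosomes 1 to 22 and X, 3 held more peaks than 18 and 3, this one among them, held as many. When the windows were moved by 0.5 Mb, the members fell into a window from 36.5 to 37.5 Mb with 13 peaks, which ranked 1 and does not hold ZNF703, and a window from 37.5 to 38.5 Mb with 6 peaks, which holds the gene and ranked 14.

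**Figure D4:**
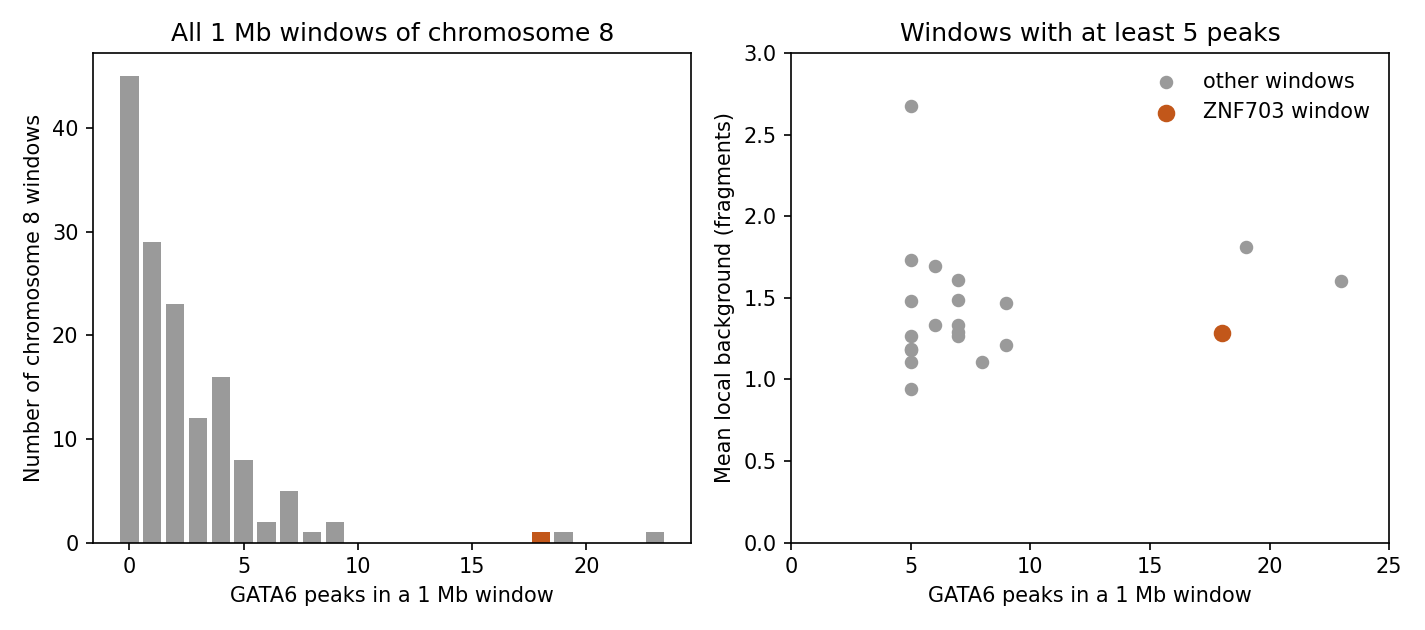
Left, the number of chromosome 8 windows of 1 Mb by the number of GATA6 peaks they hold, with the ZNF703 window (18 peaks) in orange. Right, the mean local background in fragments against the number of peaks for the 21 windows with at least 5 peaks. The ZNF703 window has a mean of 1.28, below the means of both windows with more peaks, 1.60 and 1.81. It ranks 9 from the lowest of the 21, and the median over the other windows is 1.33.

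The 3 dense windows of chromosome 8 were built differently. In the ZNF703 window the median background was 1.02 fragments, whereas it was 1.22 from 128 to 129 Mb and 1.99 from 8 to 9 Mb. Backgrounds over 1.5 were found at 4 of 18, 8 of 23 and 10 of 19 peaks. Median folds followed the reverse order, at 14.03, 13.03 and 11.46, as the fold contains the background. A low background was not particular to the ZNF703 window. The window from 81 to 82 Mb, with 9 peaks, had a median of 1.05 and a mean of 1.21, against a mean of 1.28 around ZNF703. Among the 21 windows with at least 5 peaks, the ZNF703 window ranked 6 from the lowest by median background and 9 by mean. Peaks of the window from 128 to 129 Mb were wider, with a median of 351 bp against 259.5 bp around ZNF703 and 239 bp from 8 to 9 Mb. Its highest peak, of 65 fragments, was the only one on chromosome 8 above the 62 fragments downstream of ZNF703, and the highest from 8 to 9 Mb had 31.

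Close spacing was shared by the ZNF703 window and the window from 128 to 129 Mb, where 8 of 17 and 9 of 22 distances were within 10 kb. From 8 to 9 Mb only 1 of 18 was, so that window held about as many peaks at larger distances. The largest clusters had 5, 3 and 2 peaks. On the whole chromosome 2 clusters of at least 5 peaks were found, the one upstream of ZNF703 and the 1 of 6 peaks from 110 to 111 Mb. Over the 21 windows with at least 5 peaks, the number of peaks and the mean background had a Spearman rho of 0.20, which describes windows that share the same libraries. None of these differences between windows was tested, since each window is 1 region and its peaks are not replicates.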

How the data were processed

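One file was used, the deposited list of GATA6 peaks. The submitters' processing notes name CASAVA 1.8, BWA 0.5.9-r16 and the hg19 build for the GATA6 libraries. Which peak caller and control were used, and whether libraries were pooled, is not given in the sources used here. Per the file headers, the authors gave for each peak a pileup (a coverage signal, called height), a fold enrichment (a linear ratio) and p- and q-values as −log10. The input and histone libraries were not analysed here.

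The window, the members and the gene order list were chosen with earlier results of these data known. Local background was computed as height divided by fold. With it, the deposited −log10 p of the 18 members was recomputed as a Poisson tail to within 0.0128. Windows of 1 Mb began at whole Mb, and medians were taken in windows with at least 5 peaks. Given in full were the peaks nearest to the gene, the 5 highest, the 3 with the largest fold, the 3 lowest, the widest and all clusters of at least 4, and then the others. No count or value was tested against chance. The code that finds clusters and counts windows was checked on simulated positions with planted clusters. Python 3.11.15, numpy 2.4.6, pandas 2.3.3 and scipy 1.17.1 were used. Stricter scores, joined summits, moved windows and other distances were tried.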

Additional observations from a re-analysis of the deposited data

How the results depend on the processing

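All 8 results were recomputed under 20 alternatives, of which 17 stayed within the limits set for them (1.5 times for counts, widths, spacings and backgrounds, a 95% interval for heights and shares, an equal rank). Some of the 17 could not move: leaving out the lowest background removed no member, and a reach of 400 kb kept all 18. The limit for the median height was the interval of a count of 14 (7.65 to 23.5), and that for shares rested on 18 peaks. Both were wide, so this tally is no measure of robustness. The rank of the ZNF703 window on chromosome 8 by number of peaks was 3. With windows moved by 0.5 Mb, the fuller of the pair that overlaps it, from 36.5 to 37.5 Mb, ranked 1 but lacks the gene, and the one with ZNF703, from 37.5 to 38.5 Mb, ranked 14. The rank was 2 with only peaks of −log10 q of at least 5, and it was 3 when summits within 1 kb or within 10 kb were joined. The number of peaks was 15 under the stricter score and 17 with summits within 1 kb joined, but 10 with summits within 10 kb joined, an alternative added after the data were seen that merges the clusters by its construction. The upstream share of 88.9% was 91.7% within 200 kb of the start (11 of 12 peaks), and the cluster kept its 5 peaks in number with linking distances of 5 and 20 kb. No paired analysis was possible because the list holds no value per library, and for the same reason no library could be left out. Overlap between lists was not run, since there was 1 list. At heights of 8 to 15, which 12 of 18 members had, counting error alone leaves the order of the peaks unresolved.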
